A study of Mus musculus with 16 samples.

Results

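The genes described here are 10 parts of the MHC class I antigen presentation pathway in mouse adipose progenitors: H2-K1, H2-D1, B2m, Tap1, Tap2, Tapbp, Psmb8, Psmb9, Psmb10 and Nlrc5. They were chosen by gene symbol, with earlier results of these data known. All 10 were found among the 38720 lines of the count table and among the 16842 genes that passed the filter on low counts. Adipose progenitors, the fibroblast-like cells of fat that can become adipocytes, were profiled by bulk RNA sequencing in 16 libraries, 4 in each of 4 groups. Knockout (KO) libraries came from Nr4a1-/- mice, whose genotype label is B6;129S2-Nr4a1tm1Jmi/J. Wild-type (WT) libraries came from Nr4a1+/+ mice labelled C57BL/6J, and the strain label of the KO mice is also C57BL/6J. The Nr4a1 allele and any strain background that came with it cannot be told apart. Each genotype gave progenitors from visceral fat (VAT) and from subcutaneous fat (SAT), all at an age labelled 4-week. Nr4a1 encodes an orphan nuclear receptor of the NR4A family. The names of the count columns carry the word MACS, magnetic cell sorting, but no source used here gives the antigens used or the sex of the mice. The labels call the replicates biological without tying each to an animal of its own, and p-values therefore reflect only how far these samples spread.

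MHC class I molecules display peptides from inside the cell to CD8 T cells and are ligands for receptors on natural killer cells. A heavy chain, such as those encoded by H2-K1 and H2-D1, pairs with beta-2 microglobulin (B2m). Peptides are cut by the proteasome, whose inducible catalytic subunits are encoded by Psmb8, Psmb9 and Psmb10, carried into the endoplasmic reticulum by the transporter made of Tap1 and Tap2, and loaded with the help of tapasin (Tapbp). Nlrc5 is the transactivator that assembles with promoter-bound factors at class I genes. Interferons, and interferon-gamma in particular, are known inducers of the whole set in fibroblast-like cells.

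Most of these genes lie in the MHC on chromosome 17. In GENCODE vM21 on GRCm38 (the assembly called mm10), Tapbp is at chr17:33915899-33929292 on the plus strand and H2-K1 at chr17:33996017-34000347 on the minus strand. Psmb9 (chr17:34181987-34187764, minus), Tap1 (chr17:34187553-34197225, plus), Psmb8 (chr17:34197721-34201454, plus) and Tap2 (chr17:34203527-34216321, plus) follow each other directly, and H2-D1 is at chr17:35262730-35267499 on the plus strand. B2m is at chr2:122147686-122153083 on the plus strand, and chromosome 8 holds Nlrc5 (chr8:94434356-94527272, plus) and Psmb10 (chr8:105935735-105938444, minus). The RefSeq starts of Tap1 and Psmb9 are 226 bases apart on opposite strands, so that their upstream windows share 225 bases.

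The 250 bases upstream of the RefSeq start are shown for 4 genes, 5′ to 3′ on the gene's own strand, from RefSeq on GRCm38.p6. B2m and Tap1 were among the members with the smallest p-values between genotypes and had an entry in the RefSeq table. H2-K1 and H2-D1 were added after their values were seen, because they are the classical heavy chains and their upstream regions share motif letters. Nlrc5 and Tap2 have no sequence here. Capitals mark matches to the motifs searched. In B2m (chr2:122147437-122147686, plus) they are an interferon-stimulated response element (ISRE), a kappa B site and a Y box. In Tap1 (chr17:34187306-34187555, plus) they are a Y box and an X2 or CRE element. In H2-K1 (chr17:34000348-34000597, minus) and H2-D1 (chr17:35262844-35263093, plus) they are a kappa B site followed by Y box letters. H2-D1's window lies inside the GENCODE span of that gene, whose annotated start is farther upstream. The same holds for the windows of Tapbp, Psmb8 and Psmb9 searched below. Their RefSeq starts are 3579, 474 and 434 bases from the GENCODE start, in that order.
B2m: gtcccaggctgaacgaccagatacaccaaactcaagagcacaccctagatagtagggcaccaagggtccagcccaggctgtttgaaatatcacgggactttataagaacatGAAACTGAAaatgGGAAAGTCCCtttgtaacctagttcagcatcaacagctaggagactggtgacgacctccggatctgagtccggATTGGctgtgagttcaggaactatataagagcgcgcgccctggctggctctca
Tap1: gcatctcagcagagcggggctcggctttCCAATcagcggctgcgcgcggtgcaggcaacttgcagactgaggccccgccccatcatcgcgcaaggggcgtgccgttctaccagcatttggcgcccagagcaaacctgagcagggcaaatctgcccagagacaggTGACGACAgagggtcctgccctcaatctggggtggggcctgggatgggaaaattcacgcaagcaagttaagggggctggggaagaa
H2-K1: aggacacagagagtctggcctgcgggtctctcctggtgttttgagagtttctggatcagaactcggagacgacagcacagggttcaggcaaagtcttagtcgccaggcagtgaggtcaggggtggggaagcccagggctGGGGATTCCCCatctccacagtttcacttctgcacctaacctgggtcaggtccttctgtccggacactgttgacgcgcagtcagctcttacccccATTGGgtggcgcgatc
H2-D1: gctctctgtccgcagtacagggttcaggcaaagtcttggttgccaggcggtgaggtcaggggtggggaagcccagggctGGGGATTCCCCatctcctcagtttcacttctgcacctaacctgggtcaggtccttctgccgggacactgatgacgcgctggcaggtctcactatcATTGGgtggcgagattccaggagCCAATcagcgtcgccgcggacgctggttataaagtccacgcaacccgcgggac

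Both strands were searched in the upstream windows of the 8 members with a RefSeq entry and of all 32851 promoters in the table. The Y box letters CCAAT were in 6 of the 8 member windows (B2m, H2-D1, H2-K1, Psmb9, Tap1 and Tapbp), and 33.8% of all promoters held them. That of Tap1 and that of Psmb9 are the same site in the stretch their windows share. The kappa B consensus was in B2m, H2-D1 and H2-K1 and in 7.25% of all promoters. The ISRE letters GAAANNGAA were in B2m alone of the 8 (7.13% of all), and the GAS letters TTCNNNGAA were in Psmb8 alone (7.02% of all). The X2 or CRE letters TGACGNNA were in Tap1 and Psmb9, where they are the same site in the shared stretch (5.66% of all). The NR4A response element AAAGGTCA was in none of the 8 windows and in 1.34% of all promoters. Matches of different motifs did not overlap in any of these windows, and a match is a run of letters, not a shown binding site. Fixed letters also miss variants, so a window without a match may still hold an element, also of the ISRE. For example, tgacgcgc in H2-K1 and H2-D1 and tgacgacc in B2m differ from the X2 or CRE letters only in the last base.

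Library totals were 35761196 to 43984232 counts in KO VAT, 42383156 to 46293781 in WT VAT, 44181663 to 55551845 in KO SAT and 34655519 to 49437944 in WT SAT. Levels are given as CPM, read counts divided by the library total that edgeR's TMM scaling gives, on the usual per-million scale. The TMM factors were 0.865 to 0.931 in SAT libraries and 1.09 to 1.19 in VAT libraries, so depot comparisons of CPM rest on this scaling. Nr4a1 averaged 309 ± 12.8 CPM in KO VAT against 1536 ± 97.5 CPM in WT VAT, and 201 ± 6.11 CPM in KO SAT against 1087 ± 99.4 CPM in WT SAT (SD, n = 4 each), so every library matched its genotype label. The 13 progenitor markers in the table summed to 24535 to 27096 CPM in KO VAT, 23793 to 27358 in WT VAT, 60172 to 70124 in KO SAT and 55063 to 62748 in WT SAT. WT SAT library 3 stood apart: its mean correlation with the other libraries of its group was 0.968, against 0.979 to 0.98 for the other 3 of that group. It was the highest WT SAT library for 9 of the 10 members and the lowest for Nlrc5. Values without it are given with the genotype comparisons and the correlations. KO VAT library 4 had the highest TMM factor of all libraries (1.19). Its mean correlation within its group was 0.977, against 0.980 to 0.981 for the other KO VAT libraries. It was the highest KO VAT library for H2-K1, H2-D1, Tap1, Tap2, Psmb8, Psmb10 and Nlrc5, but not for B2m, Tapbp or Psmb9.

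All 10 genes were expressed at lower levels in VAT than in SAT progenitors, in both genotypes. For none of them did the CPM of the VAT and SAT libraries of a genotype overlap. Over plain library totals, without TMM scaling, the VAT and SAT libraries did overlap for Tap2, Tapbp and Psmb10 in each genotype. The smaller depot differences of Tap2, Tapbp and Psmb10 therefore depend on the scaling. In KO the level in VAT was 0.302 times that in SAT for Nlrc5 and 0.777 times for Tapbp, the ends of the range. In WT it was 0.27 times for Nlrc5 and 0.774 times for Tapbp. The genotype changed far fewer of them: Nlrc5 rose in KO progenitors of both depots and B2m rose in those of SAT. All 10 depot differences passed the edgeR quasi-likelihood test at an adjusted p (Benjamini-Hochberg over all tested genes) under 0.05 in each genotype. Of all tested genes, 20% were called lower in VAT than in SAT in KO and 17.6% in WT, and 43.3% in KO and 36.7% in WT were called in either direction. Non-overlapping groups with VAT lower were found for 21.8% of all genes in KO and 16.1% in WT. Each group enters a depot and a genotype comparison, so these comparisons share libraries. The median log2 fold change of the 10 genes, VAT against SAT, was -1.17 in KO and -0.998 in WT, against medians over all genes of 0.02 in KO and -0.00 in WT. In bulk RNA, fewer cells of a type and less RNA per cell cannot be told apart.

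**Figure D1:**
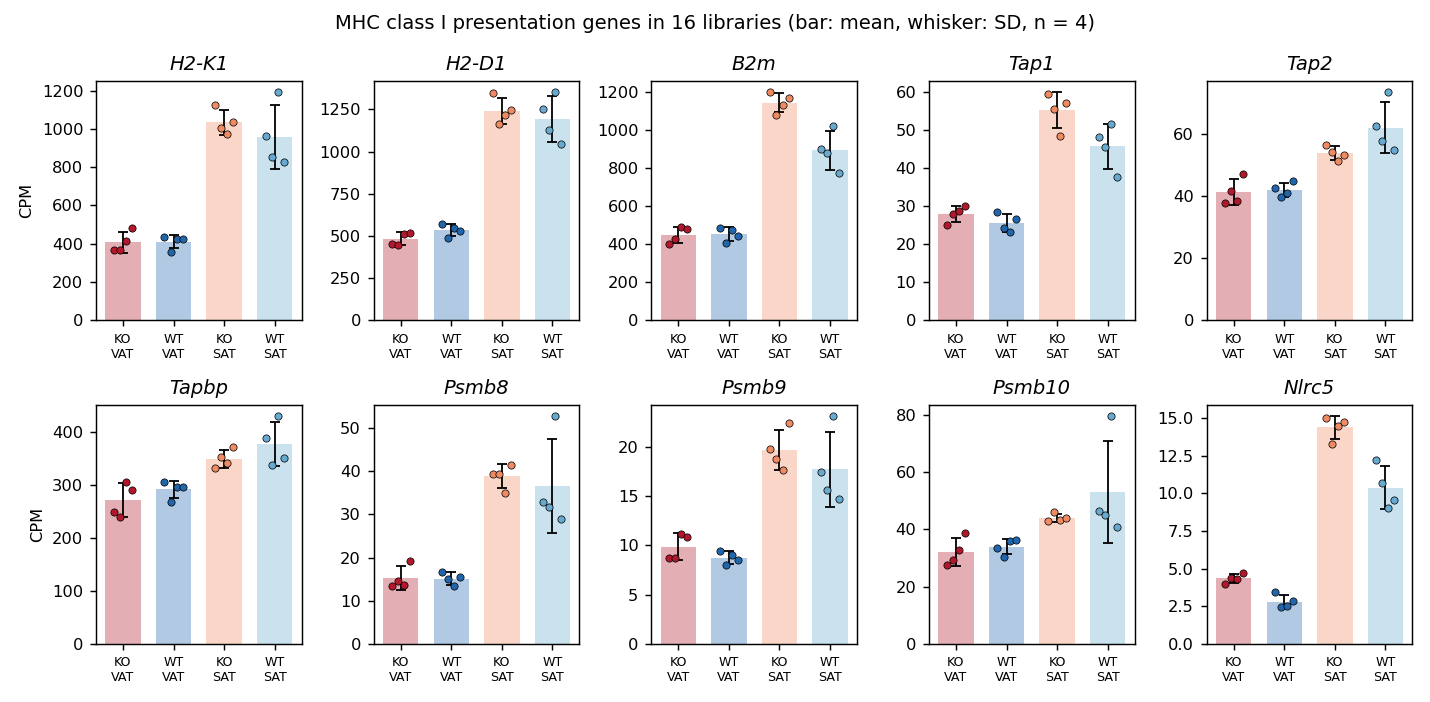
CPM (linear axis from 0) of the 10 genes in all 16 libraries, by group from left to right KO VAT, WT VAT, KO SAT and WT SAT. Points are libraries, bars are means and whiskers are SD (n = 4). Both VAT groups sit below both SAT groups for every gene, Nlrc5 separates all 4 groups, and WT SAT library 3 is the high point of that group for 9 genes.

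The classical heavy chains and their light chain were the most abundant members. H2-K1, which encodes the K heavy chain, had 367, 364, 415 and 482 CPM in the 4 KO VAT libraries, against 1127, 1008, 973 and 1035 CPM in those of KO SAT. Its WT values were 433, 358, 426 and 423 CPM in VAT, against 966, 852, 1192 and 827 CPM in SAT. Every VAT library lay below every SAT library, while KO and WT overlapped within each depot. The log2 fold change of VAT against SAT was -1.35 ± 0.12 (SE) in KO (edgeR adjusted p = 7.74e-08) and -1.23 ± 0.12 in WT (adjusted p = 2.88e-07). Between genotypes the log2 fold change of H2-K1, KO against WT, was -0.01 in VAT (95% interval -0.26 to 0.24) and 0.11 in SAT (-0.14 to 0.36).

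H2-D1, the D heavy chain, followed the same order of groups. It averaged 481 ± 38.7 CPM in KO VAT against 1242 ± 76.5 CPM in KO SAT, and 533 ± 35.3 CPM in WT VAT against 1193 ± 136 CPM in WT SAT (SD, n = 4 each). Its depot log2 fold change was -1.37 ± 0.09 in KO (edgeR adjusted p = 2.83e-09) and -1.16 ± 0.09 in WT (adjusted p = 2.30e-08). KO and WT overlapped in both depots, with log2 fold changes of -0.15 (95% interval -0.34 to 0.05) in VAT and 0.06 (-0.14 to 0.25) in SAT. Of the 75-base stretches of the longest GENCODE coding transcripts, 7.10% of H2-D1 and 1.55% of H2-K1 recur in other genes, mostly other class I genes, so a small part of these counts depends on how shared reads were assigned.

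B2m, the light chain that pairs with class I heavy chains, was the abundant member with a genotype call. In SAT it had 1196, 1078, 1133 and 1165 CPM in KO libraries, against 898, 876, 1020 and 771 CPM in WT libraries. All 4 KO libraries were above all 4 WT libraries, and the highest WT value was again library 3. B2m rose 1.28-fold in KO SAT (log2 0.36 ± 0.09, edgeR adjusted p = 0.0287). That call was lost when only the KO SAT and WT SAT libraries were fitted (adjusted p = 0.0709) and when KO SAT library 1, 3 or 4 or WT SAT library 1, 2 or 4 was left out, with adjusted p up to 0.0841. It held without WT SAT library 3.

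In VAT the genotypes overlapped for B2m, with 398, 426, 491 and 476 CPM in KO libraries against 485, 407, 474 and 441 CPM in WT libraries. The log2 fold change there was -0.01 (95% interval -0.21 to 0.19). The KO effect in VAT minus that in SAT was -0.37 ± 0.13 on the log2 scale, with an unadjusted p of 0.0107 in edgeR's test across all genes and an adjusted p of 0.191. B2m was lower in VAT than in SAT by a log2 fold change of -1.35 ± 0.09 in KO (adjusted p = 4.80e-09) and -0.98 ± 0.09 in WT (adjusted p = 2.51e-07).

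The count ratio of both heavy chains to B2m compares the parts of the class I dimer inside each library and needs no scaling between libraries. It was 2.07, 2.01, 1.93 and 1.96 in KO SAT, against 2.47, 2.26, 2.49 and 2.43 in WT SAT, with no overlap. The difference of the mean log2 ratios was -0.28. In a two-sided exact permutation test p was 0.0286, the smallest that 4 against 4 allows, adjusted over 16 ratio comparisons to 0.0457. This adjustment pooled genotype with depot comparisons, most of which were also at the smallest p, and the adjusted value depends on that pooling. The same holds for the adjusted p of the subunit ratios below. In VAT the ratio averaged 1.98 in KO and 2.09 in WT, the groups overlapped, and the difference of -0.07 did not pass (exact permutation p = 0.2). WT VAT was below WT SAT without overlap (log2 difference -0.21, exact p = 0.0286), while KO VAT and KO SAT overlapped (difference -0.01, exact p = 0.886).

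Tap1 and Tap2 encode the paired chains of the peptide transporter, and their profiles differed. Tap1 had 25.1, 27.8, 28.6 and 30.0 CPM in KO VAT against 28.5, 24.3, 23.2 and 26.5 CPM in WT VAT. In SAT it had 59.5, 55.7, 48.5 and 57.1 CPM in KO against 48.1, 45.5, 51.6 and 37.7 CPM in WT. VAT and SAT libraries separated in each genotype, and KO and WT overlapped in each depot, in SAT through WT library 3. The KO effect in SAT, log2 0.27 ± 0.10, had an unadjusted p of 0.0119 in edgeR's test across all genes and did not pass (adjusted p = 0.108). The depot log2 fold change of Tap1 was -0.99 ± 0.10 in KO (adjusted p = 3.40e-07) and -0.84 ± 0.10 in WT (adjusted p = 2.98e-06).

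Tap2 averaged 41.4 ± 4.26 CPM in KO VAT against 53.8 ± 2.23 CPM in KO SAT, and 42.1 ± 2.32 CPM in WT VAT against 62.2 ± 8.21 CPM in WT SAT. Its depot log2 fold change was -0.38 ± 0.09 in KO (edgeR adjusted p = 0.00227) and -0.56 ± 0.09 in WT (adjusted p = 8.09e-05). In SAT the KO effect had the opposite sign to that of Tap1, at -0.21 ± 0.09, and did not pass (adjusted p = 0.18). Tap2 has 18.5% of its exon bases in common with 2 transcripts on the opposite strand, and the strand setting of the counting is not given in the sources used here.

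Tapbp, tapasin, which holds the empty class I molecule at the transporter, had the smallest depot difference of the 10. It ranged over 240 to 306 CPM in KO VAT, 268 to 306 in WT VAT, 332 to 372 in KO SAT and 338 to 430 in WT SAT. The depot log2 fold change was -0.36 ± 0.09 in KO (edgeR adjusted p = 0.00354) and -0.37 ± 0.09 in WT (adjusted p = 0.00391), and genotypes overlapped in both depots. Of the exon bases of Tapbp, 29.0% overlap other genes, most of them the antisense gene Gm19412, so its level carries that uncertainty.

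Psmb8, Psmb9 and Psmb10 encode the inducible catalytic subunits that replace Psmb5, Psmb6 and Psmb7 in the immunoproteasome. Psmb8 had 13.3, 14.5, 13.7 and 19.3 CPM in KO VAT against 16.6, 15.0, 13.3 and 15.6 CPM in WT VAT. In SAT it had 39.4, 39.4, 34.9 and 41.6 CPM in KO against 32.9, 31.7, 52.8 and 29.0 CPM in WT. Without WT SAT library 3 the SAT genotypes would not overlap, and the log2 fold change of KO against WT, 0.09 over all libraries, was 0.32 without it (edgeR adjusted p = 0.12). Psmb8 was lower in VAT by a log2 fold change of -1.35 ± 0.16 in KO (adjusted p = 3.00e-06) and -1.27 ± 0.16 in WT (adjusted p = 7.52e-06). Of the exon bases of Psmb8, 14.7% overlap Gm20496 on the opposite strand, and with the strand setting of the counting unknown its level and its ratio to Psmb5 carry that uncertainty.

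Psmb9 ranged over 8.69 to 11.2 CPM in KO VAT, 7.97 to 9.47 in WT VAT, 17.7 to 22.4 in KO SAT and 14.7 to 23.1 in WT SAT. Its depot log2 fold change was -0.996 ± 0.133 in KO (edgeR adjusted p = 1.06e-05) and -1.02 ± 0.13 in WT (adjusted p = 1.12e-05). Psmb10 ranged over 27.7 to 38.8 CPM in KO VAT, 30.4 to 36.3 in WT VAT, 42.9 to 46.0 in KO SAT and 40.9 to 79.6 in WT SAT. Its depot difference in KO, -0.45 ± 0.16, was the weakest depot call (adjusted p = 0.0322). The Psmb10 call was lost without any of the 4 KO SAT libraries or without KO VAT library 1, 2 or 3, with adjusted p of 0.0503 to 0.0931. In WT it was -0.64 ± 0.16 (adjusted p = 0.00485). Neither Psmb9 nor Psmb10 passed between genotypes in either depot.

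The standard subunits Psmb5, Psmb6 and Psmb7 passed in no comparison, depot or genotype, by edgeR, DESeq2 or limma-voom. At an unadjusted p under 0.05, edgeR and DESeq2 each had 2 of them in SAT, both lower in KO, and limma-voom had 0. In SAT, Psmb5 averaged 15.8 ± 0.53 CPM in KO and 19.5 ± 5.38 in WT, and Psmb6 averaged 60.8 ± 3.41 in KO and 78.0 ± 24.8 in WT. WT library 3 was the highest of its group for both. The ratio of an inducible subunit to its standard counterpart was therefore taken inside each library. Psmb8/Psmb5 was 2.51, 2.44, 2.15 and 2.75 in KO SAT, against 1.86, 1.92, 1.92 and 1.76 in WT SAT. The groups did not overlap and WT SAT library 3 lay among the others of its group, unlike its Psmb8 level. The mean log2 ratio was higher in KO SAT by 0.40 (two-sided exact permutation p = 0.0286, adjusted 0.0457).

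Psmb9/Psmb6 gave 0.327, 0.292, 0.314 and 0.361 in KO SAT, against 0.261, 0.246, 0.201 and 0.221 in WT SAT. This was also without overlap, with a log2 difference of 0.48 (exact permutation p = 0.0286, adjusted 0.0457). Psmb10/Psmb7 averaged 0.644 in KO SAT and 0.686 in WT SAT and overlapped (log2 difference -0.09, exact p = 0.543). In VAT none of these ratios separated KO from WT, with log2 differences of 0.10 for Psmb8/Psmb5, 0.19 for Psmb9/Psmb6 and -0.08 for Psmb10/Psmb7 (exact permutation p = 0.543, 0.2 and 0.514 in that order). All were lower in VAT than in SAT in each genotype with no overlap: Psmb8/Psmb5 by log2 differences of -1.41 in KO and -1.11 in WT, Psmb9/Psmb6 by -1.18 in KO and -0.89 in WT, and Psmb10/Psmb7 by -0.56 in KO and -0.57 in WT (exact permutation p = 0.0286 each). Tap1 and Psmb9 share 212 exon bases on opposite strands, and 10.8% of the 75-base stretches of the Psmb9 transcript recur in Tap1 on one strand or the other.

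**Figure D2:**
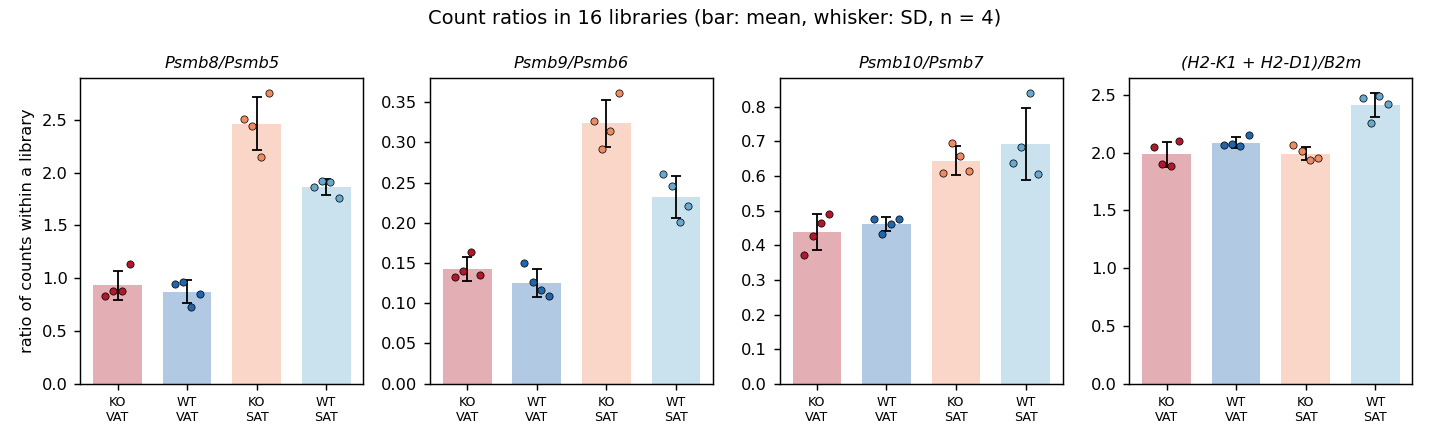
Count ratios inside each library for Psmb8/Psmb5, Psmb9/Psmb6, Psmb10/Psmb7 and heavy chains over B2m, by group from left to right KO VAT, WT VAT, KO SAT and WT SAT. Points are libraries, bars are means and whiskers are SD (n = 4). KO SAT lies above WT SAT in the left pair of panels (2.15 to 2.75 against 1.76 to 1.92 for Psmb8/Psmb5) and below it in the right panel (1.93 to 2.07 against 2.26 to 2.49).

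Nlrc5, the class I transactivator, had the lowest level and the largest relative differences of the 10 genes. It had 4.00, 4.40, 4.29 and 4.71 CPM in KO VAT against 3.43, 2.43, 2.51 and 2.84 CPM in WT VAT. In SAT it had 15.0, 13.3, 14.5 and 14.7 CPM in KO against 12.2, 10.7, 9.01 and 9.55 CPM in WT. The 4 groups did not overlap at all, in the order KO SAT, WT SAT, KO VAT and WT VAT from high to low, and Nlrc5 was the only member of the 10 for which this held. Nlrc5 rose 1.55-fold in KO VAT (log2 0.63 ± 0.12, edgeR adjusted p = 0.00582) and 1.39-fold in KO SAT (log2 0.47 ± 0.12, adjusted p = 0.0232). The VAT call held when each of the 16 libraries was left out in turn, with adjusted p up to 0.0278. The SAT call was lost without KO SAT library 1, 3 or 4 or WT SAT library 3 or 4, with adjusted p up to 0.0743. The KO effect in VAT minus that in SAT was 0.16 ± 0.17 (adjusted p = 0.644). Nlrc5 was lower in VAT than in SAT by log2 -1.73 ± 0.12 in KO (adjusted p = 5.01e-09) and -1.89 ± 0.12 in WT (adjusted p = 2.58e-09).

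Between genotypes, 1 of the 10 genes was called in VAT (Nlrc5) and 2 in SAT (B2m and Nlrc5), all higher in KO. Of all tested genes, 4.10% were called in VAT and 5.89% in SAT, and 2.84% in VAT and 3.46% in SAT were called higher in KO. Groups without overlap and with KO higher were found for 7.02% of all genes in VAT and 7.95% in SAT. At an unadjusted p under 0.05, 1 member passed in VAT and 4 in SAT (B2m, Nlrc5, Tap1 and Tap2). DESeq2 and limma-voom called as many members as edgeR did in each comparison. Without WT SAT library 3, 1 member, B2m, was called in SAT (log2 0.43, edgeR adjusted p = 0.00789) and 6 had an unadjusted p under 0.05. The log2 fold changes in SAT were then 0.41 for Nlrc5 (adjusted p = 0.0543), 0.33 for Tap1, 0.32 for Psmb8, 0.30 for Psmb9, 0.23 for H2-K1, 0.12 for H2-D1, -0.00 for Psmb10, -0.04 for Tapbp and -0.12 for Tap2. The log2 difference of KO SAT from WT SAT without it was 0.41 for Psmb8/Psmb5, 0.41 for Psmb9/Psmb6, 0.0048 for Psmb10/Psmb7 and -0.26 for heavy chains over B2m. The median log2 fold change of the 10, KO against WT, was -0.01 in VAT and 0.10 in SAT, with medians over all genes of -0.00 in VAT and -0.01 in SAT. No member was called for an unequal KO effect in VAT and SAT by edgeR, DESeq2 or limma-voom. B2m alone had an unadjusted p under 0.05 in each of these tests, and 0.267% of all genes were called by edgeR.

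**Figure D3:**
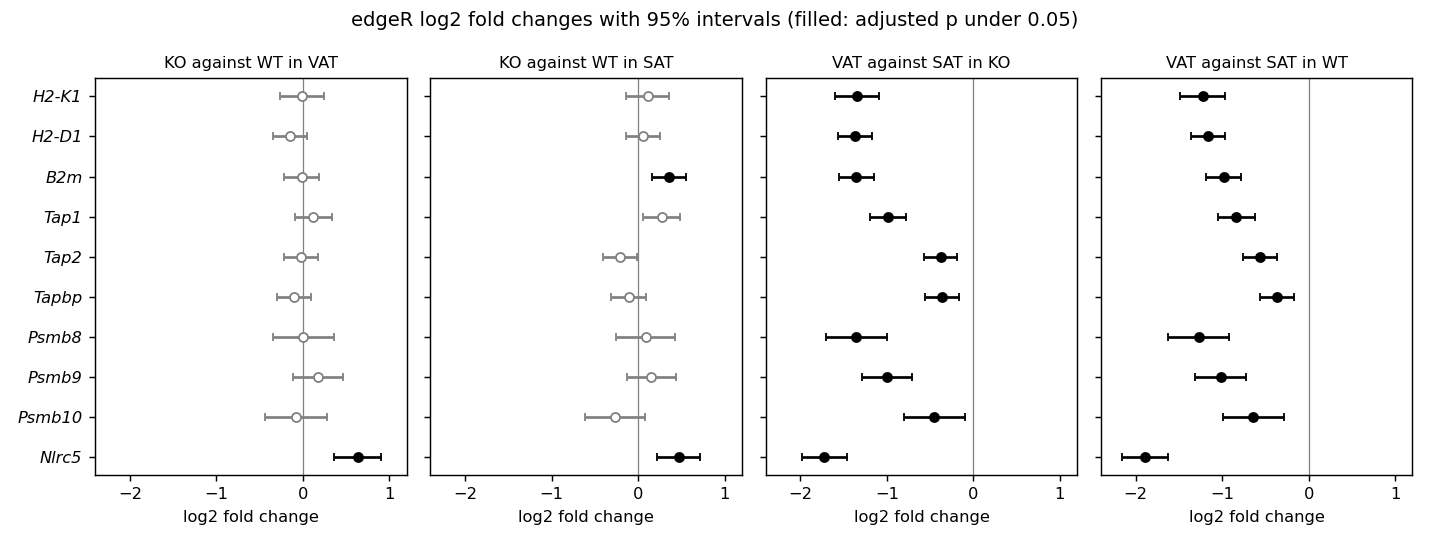
Log2 fold changes of the 10 genes with 95% intervals from edgeR, for KO against WT in VAT and in SAT and for VAT against SAT in KO and in WT. Filled points passed at an adjusted p under 0.05. Every depot estimate is below 0 (from -0.36 to -1.89), while between genotypes only Nlrc5 in both depots and B2m in SAT are filled.

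Per kilobase of exon, over all annotated exons of a gene, the order of levels was B2m, H2-D1, H2-K1, Tapbp, Psmb10 and Tap2 in all 4 groups. This runs from high to low, with Psmb9 and Nlrc5 at the low end. The order depends on the length used: the exons of H2-K1 and H2-D1 cover 2938 and 2579 bases. Their longest coding transcripts have 1619 and 2102. In KO SAT, B2m stood at 1329 ± 58.6 CPM per kb, H2-D1 at 482 ± 29.7, Tapbp at 96.2 ± 4.71 and Nlrc5 at 1.69 ± 0.09 (SD, n = 4). Psmb8 ranked above Tap1 in SAT and below it in VAT, where their means differed by less than the SD of Psmb8 in KO (4.50 ± 0.82 for Psmb8 and 5.09 ± 0.37 CPM per kb for Tap1).

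Pearson's r of log2 CPM over the 16 libraries was 0.64 to 0.96 for the 9 pairs of members that include Nlrc5 and 0.75 to 0.99 for the other 36. After each group's mean was subtracted, which leaves the spread between replicates, the 36 pairs had a median of 0.76 (0.53 to 0.94) and the 9 pairs with Nlrc5 a median of 0.17 (-0.15 to 0.48). That gap rested on WT SAT library 3, left out here by a choice made after seeing the data: without it the medians within groups were 0.68 (0.30 to 0.92) for the 36 pairs and 0.62 (0.39 to 0.78) for those with Nlrc5. These are descriptions; the libraries share their depot and genotype differences, and the most alike genes named next were ranked with library 3 included. Across all tested genes, those most like H2-K1 over the 16 libraries were H2-D1, Ifi27l2a, Plac8, H2-Q4 and Bco2 (r = 0.99 each). With group means removed they were Aprt (r = 0.95), Mid1ip1, Dhrs4, Bst2 and Smdt1. Those most like Nlrc5 were Iigp1 (r = 0.99), Scn8a, Gbp11, H2-Q6 and Tle2, and with group means removed Gm13033 (r = 0.87), Kif7, Sema4b, Nr4a1 (r = 0.79) and Dnajc16.

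Most other class I heavy chain and class I-like genes followed the same depot order. Of 14 tested, 12 were lower and 1 was higher in VAT than in SAT in KO, and 9 were lower in WT. Median log2 fold changes were -0.84 in KO and -0.63 in WT. By comparison, 43.3% of all tested genes were called between depots in KO and 36.7% in WT, in either direction. The smaller shares called lower are given above with the 10 genes. H2-Q4, a non-classical heavy chain gene, averaged 69.7 ± 9.66 CPM in KO VAT against 168 ± 19.1 in KO SAT. H2-Q10, known in mice for a secreted class I chain, averaged 0.41 ± 0.20 CPM in WT VAT against 13.2 ± 2.08 in WT SAT. Between genotypes, H2-Q6, H2-Q7, H2-T24 and Mr1, which presents vitamin B metabolites, rose in KO SAT and H2-Q10 fell, while H2-Q6, H2-Q7 and Cd1d1, which presents lipids, rose in KO VAT. H2-T24 had 14.5, 12.1, 26.8 and 18.7 CPM in KO SAT against 7.17, 6.64, 6.38 and 5.90 CPM in WT SAT, without overlap (log2 1.47 ± 0.22, edgeR adjusted p = 0.000583). Cd1d1 had 8.83, 10.5, 7.67 and 12.2 CPM in KO VAT against 5.22, 4.59, 4.43 and 5.64 CPM in WT VAT, also without overlap (log2 0.98 ± 0.18, adjusted p = 0.00299). In SAT, 2 were called higher without KO SAT library 1, 3 or 4, and none lower without library 4. In VAT, 1 was called without KO VAT library 3 or 4 or WT VAT library 2 or 4 and by limma-voom, and Cd1d1 held in all 16 fits. The calls of H2-T24 and H2-Q6 in SAT also held in all 16, those of H2-Q10 and H2-Q7 in SAT in 15 and 11, and those of H2-Q7 and H2-Q6 in VAT in 12 and 6. The Mr1 call held in 5 of the 16. H2-Q genes are near-identical copies of each other, so their values are uncertain where reads were shared.

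The rest of the loading and processing machinery differed less. Of 12 tested genes for peptide loading and quality control in the endoplasmic reticulum, none was called between genotypes by edgeR in either depot, where 2 in VAT and 2 in SAT had an unadjusted p under 0.05 and DESeq2 called 1 in SAT and 0 in VAT. Depot calls, in either direction, covered 43.3% of all tested genes in KO and 36.7% in WT. In VAT against SAT, 8 of the 12 were lower in KO and 4 in WT, with medians of -0.31 in KO and -0.15 in WT. The count in WT fell to 2 without WT SAT library 1 or 4 or WT VAT library 1 or 3. The genes lower in KO VAT included Pdia3, an oxidoreductase of the loading complex (713 ± 34.2 CPM in KO VAT against 883 ± 45.9 in KO SAT), and Erap1, which trims peptides (47.5 ± 5.18 against 60.6 ± 2.01). Of the 4 proteasome activator genes, Psme2 was called, lower in WT VAT (58.3 ± 4.53 CPM against 76.3 ± 17.2 in WT SAT, adjusted p = 0.0162, and 0.0562 without WT VAT library 2), and none between genotypes, also at an unadjusted p under 0.05 and by DESeq2. Among 14 other core and assembly genes of the proteasome, Psma6 was the 1 gene called, higher in KO VAT than in KO SAT, and its call held in 7 of the 16 fits that left out 1 library, with adjusted p up to 0.106. None of the 14 was called between genotypes by edgeR, DESeq2 or limma-voom, and edgeR had 6 in SAT and 0 in VAT at an unadjusted p under 0.05.

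Of 24 factors known to act at class I promoters or in interferon and NF-kB signalling, 5 rose in KO SAT and 2 in KO VAT, and none fell. In SAT these included the interferon-response factors Stat2, Irf9 and Irf7 and the histone methyltransferase Ezh2, and in VAT they were Ezh2 and Irf8. Stat2 had 113, 119, 116 and 117 CPM in KO SAT against 77.1, 87.7, 80.02 and 66.2 CPM in WT SAT, without overlap (log2 0.58 ± 0.08, edgeR adjusted p = 0.000205). Irf1, a factor induced by interferon-gamma, averaged 237 ± 30.6 CPM in KO VAT against 217 ± 34.0 in WT VAT and 344 ± 40.3 CPM in KO SAT against 357 ± 45.3 in WT SAT, and passed in neither depot. Between depots, 43.3% of all tested genes were called in KO and 36.7% in WT, in either direction. In VAT against SAT, 10 of the 24 were lower and 4 higher in KO, and 8 were lower and 2 higher in WT. Irf1 was among the lower ones in both (log2 -0.54 ± 0.12 in KO and -0.72 ± 0.12 in WT). Ezh2 and Irf7 in SAT lost their calls in 12 and 5 of the 16 fits that left out 1 library, whereas Stat2 and Irf9 lost none.

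The interferon receptor Ifngr1 fell in KO progenitors of both depots, to 183 ± 20.3 CPM in KO VAT against 241 ± 16.0 in WT VAT (log2 -0.40 ± 0.10, edgeR adjusted p = 0.0273) and to 236 ± 17.97 CPM in KO SAT against 298 ± 36.1 in WT SAT (log2 -0.34 ± 0.10, adjusted p = 0.0487). The Ifngr1 call held in 12 of 16 fits that left out 1 library in VAT and in 3 of 16 in SAT. Of the 11 receptor and signalling genes, Socs3 also fell in KO VAT, and its call held in 4 of the 16 fits. Of all tested genes, 43.3% were called between depots in KO and 36.7% in WT. Among the 11, depot calls were 7 lower and 1 higher in KO and 3 lower and 1 higher in WT. They included Usp18, a brake on the type I receptor, at 5.28 to 7.72 CPM in KO VAT against 47.2 to 59.1 CPM in KO SAT. Of 7 interferon genes listed, 1 passed the filter on low counts. EdgeR and DESeq2 called it in no comparison, with an unadjusted p under 0.05 in both depot comparisons and in neither genotype comparison.

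Interferon-inducible genes outside the class I pathway were called in SAT more than in VAT. Of 20 type I interferon effectors, 13 rose in KO SAT and none was called in KO VAT, where 3 had an unadjusted p under 0.05 and DESeq2 and limma-voom each called 1, lower. Of 13 interferon-gamma-inducible GTPase genes, 9 rose in KO SAT and 1, Iigp1, rose in KO VAT, where its groups overlapped and the call held in 10 of the 16 fits that left out 1 library (adjusted p up to 0.101). Called higher in KO were 3.46% of all tested genes in SAT and 2.84% in VAT. Median log2 fold changes in KO SAT were 0.63 for the effectors and 0.64 for the GTPases. In KO VAT they were -0.06 and 0.14, in that order. Ifih1, a sensor of double-stranded RNA, averaged 63.8 ± 3.41 CPM in KO SAT against 41.4 ± 6.04 in WT SAT (log2 0.62 ± 0.09, edgeR adjusted p = 0.000681). Its KO effect in VAT minus that in SAT was -0.82 ± 0.13 (adjusted p = 0.0202). Leaving out 1 library gave 10 to 19 effectors called higher in KO SAT, 19 of them without WT SAT library 3. In VAT against SAT, 19 effectors and 11 GTPases were lower in KO, and 12 and 7 were lower in WT. Here too, 43.3% of all tested genes were called between depots in KO and 36.7% in WT, in either direction.

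**Figure D4:**
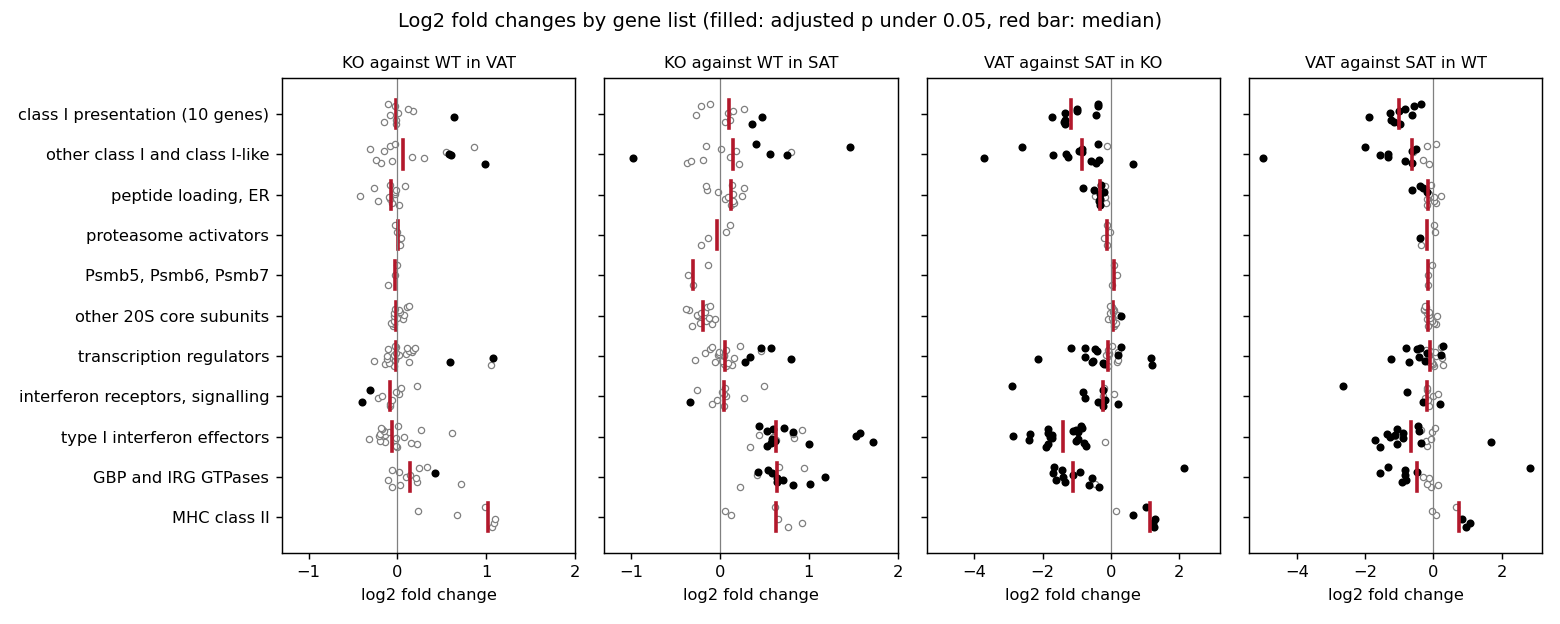
Log2 fold changes of tested genes in 11 gene lists for KO against WT in VAT and in SAT and for VAT against SAT in KO and in WT. Points are genes, filled where the edgeR adjusted p was under 0.05, and red bars are list medians; both genotype panels share an axis range, as do both depot panels. In KO SAT the effector and GTPase medians (0.63 and 0.64) lie to the right of that of the 10 class I presentation genes (0.10).

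Markers of other cell types moved with the depot more than with the genotype. The 9 mesothelial markers summed to 816 to 1567 CPM in KO VAT, 823 to 1597 in WT VAT, 6.70 to 9.51 in KO SAT and 7.35 to 10.4 in WT SAT, with Muc16 at 0 counts in all SAT libraries. The 7 pericyte and smooth muscle markers summed to 4235 to 5354 CPM in KO VAT, 4615 to 4915 in WT VAT, 1820 to 2541 in KO SAT and 2280 to 3862 in WT SAT. The 10 endothelial markers summed to 172 to 195 CPM in KO VAT, 208 to 229 in WT VAT, 278 to 349 in KO SAT and 248 to 291 in WT SAT. The lower sums in VAT came from Tek, an angiopoietin receptor, at 62.9 CPM in KO VAT against 248 in KO SAT and 78.4 in WT VAT against 205 in WT SAT. The median log2 fold change of the list, VAT against SAT, was 1.06 in KO and 0.85 in WT, with 5 higher and 2 lower in KO and 4 higher and 2 lower in WT. The sum of the progenitor markers given above was lower in VAT, the direction of the class I genes. Of these 13, 9 were called lower in each genotype and 1 was called higher in WT. Their median log2 fold change was -0.58 in KO and -0.65 in WT, and 3 in KO and 2 in WT had a fold change above 0. For all tested genes, the share called between depots in either direction was 43.3% in KO and 36.7% in WT. The part of these cells in the depot differences of the class I genes was not tested.

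Leukocytes, which carry abundant class I, were traced by 8 pan-leukocyte markers. These summed to 64.7 to 162 CPM in KO VAT and 69.2 to 81.5 in WT VAT. In SAT they summed to 61.9 to 76.4 in KO and 58.9 to 74.9 in WT. The sums of VAT and SAT overlapped in KO and in WT. Gene by gene, 4 of the 8 were called higher in VAT than in SAT in KO and 2 in WT, and 0 lower. The median log2 fold change, VAT against SAT, was 0.44 in KO and 0.37 in WT. Called in either direction were 43.3% of all tested genes in KO and 36.7% in WT. Between genotypes, 1 of the 8 was called in VAT, higher in KO, where all 8 fold changes were above 0, and 0 in SAT. The 10 myeloid markers summed to 28.1 to 51.5 CPM in KO VAT, 28.3 to 52.2 in WT VAT, 22.8 to 27.6 in KO SAT and 15.4 to 28.8 in WT SAT. The 12 T, NK and innate lymphoid markers summed to 16.8 to 23.8 CPM in KO VAT, 16.9 to 21.0 in WT VAT, 9.49 to 14.5 in KO SAT and 9.41 to 15.6 in WT SAT. Those higher sums in VAT came mostly from Gata3 and Il7r, while the list's median log2 fold change, VAT against SAT, was -0.13 in KO and -0.28 in WT. Of its 11 tested genes, 2 were higher and 0 lower in KO, and 2 higher and 2 lower in WT. The 6 B and plasma cell markers summed to 6.94 to 26.5 CPM in KO VAT, 1.83 to 7.91 in WT VAT, 1.15 to 3.08 in KO SAT and 0.334 to 0.777 in WT SAT. The 6 MHC class II genes, which mark antigen-presenting cells, ran against class I in the depots: 5 were higher in KO VAT than in KO SAT and 3 were higher in WT VAT than in WT SAT, the 3 of WT with overlapping groups and lost without WT SAT library 3 or 4 or WT VAT library 1 or 2. Between genotypes edgeR called none of the 6, although 5 in VAT and 3 in SAT had an unadjusted p under 0.05 and limma-voom called 5 and DESeq2 3 in VAT, all higher in KO. The part of leukocytes in the KO VAT values was not tested.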

How the data were processed

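The authors deposited a table of read counts per gene symbol and a table of normalised values (unit signal), which match the counts over a constant for each library (largest relative deviation 4.94e-10) and served only as an alternative scaling. The submitters' processing notes name featureCounts, STAR, DESeq and FastQC and the mm10 build. Versions, annotation, strand setting and handling of shared reads were not stated. Per the labels, RNA was made into NEBNext Ultra libraries and read as single reads of 75 bases.

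In R 4.3.3, edgeR 4.0.16 fitted all 16 libraries with 1 coefficient per group after filterByExpr and TMM scaling (12 residual degrees of freedom, biological coefficient of variation 0.156). Genes were called at an adjusted p (Benjamini-Hochberg over 16842 genes) under 0.05, and a standard error is the log2 fold change over the square root of F. DESeq2 1.42.0, limma-voom (limma 3.58.1), other scalings, no filter, only the groups compared, a replicate block and leaving out each library were alternatives. Leaving out libraries and changing the tool for gene lists were added after seeing the data. The script was tested on simulated data. The count table also held 27 names shaped like dates, which were not named. Named genes were the 10 members, Nr4a1, Psmb5 to Psmb7, up to 4 called genes per list and comparison, and the 5 genes most like H2-K1 and Nlrc5. Iigp1, Irf1, Psma6 and the H2-Q genes beyond that rule, like some list genes named for their role, were chosen after their values were seen. The members and lists were chosen with earlier results of these data known. Figures were drawn with matplotlib 3.10.9. A gene of the regulator list is not reported here by name.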

Additional observations from a re-analysis of the deposited data

Results flagged for a closer look

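In 3 of the 40 sets of 4 libraries (10 genes in 4 groups), 1 library lay far from the other 3 relative to the range of its group, a rule that chance meets in about 1 set in 20. H2-K1 in WT VAT library 2 was the lowest of its group at 358 CPM, with the next library at 423 CPM. Psmb8 in WT SAT library 3 was the highest at 52.8 CPM, with the next at 32.9 CPM. Psmb10 in the same library was the highest at 79.6 CPM, with the next at 46.5 CPM.

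For 5 interferon-inducible genes the KO effect differed between depots by edgeR's interaction test, with the effect in VAT minus that in SAT at -0.91 for Ifit2 (adjusted p = 0.0135), -0.82 for Ifih1 (0.0202), -0.68 for Parp14 (0.0380), -0.91 for Samd9l (0.0395) and -0.60 for Irgm2 (0.0411) on the log2 scale. When each of the 16 libraries was left out in turn, Ifit2 kept its call in 16 fits, Ifih1 in 14, Samd9l and Irgm2 in 4 each and Parp14 in 3.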

How the results depend on the processing

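The number of members called lower in VAT stayed at 9 to 10 in KO and at 10 in WT when each library was left out in turn. Members called were 1 in KO VAT in each such fit, 0 to 2 in KO SAT and 0 for the interaction. Genes called ranged over 412 to 1216 in KO VAT (690 with all libraries), 469 to 1158 in KO SAT (992), 6593 to 8592 between depots in KO (7292), 5395 to 6395 in WT (6187) and 7 to 149 for the interaction (45). DESeq2 called 1248 genes in KO VAT, 1710 in KO SAT and 563 for the interaction. Fitting only the groups compared gave 509 genes and 1 member in KO SAT. Deviations of same-numbered libraries correlated at -0.16 to 0.16 over all pairs of groups. They correlated at -0.03 to 0.12 between WT SAT and WT VAT and at -0.02 to 0.05 between KO SAT and KO VAT. These values cannot tell whether same-numbered SAT and VAT libraries came from the same animal, which the labels do not say. A replicate block left 14 genes for the interaction (11 with the block within genotype), and 2 members in KO SAT, 1 in KO VAT and 10 per genotype between depots.

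Small effects near 0 changed sign. Fitting only the groups compared gave 0.000593 for B2m and 0.00348 for H2-K1 in KO VAT. Psmb8 in KO VAT was -0.00869 by limma-voom and -0.00559 with no filter. For the interaction, Psmb9 was -0.0241 by limma-voom. Tapbp was -0.00332 by limma-voom, -0.0134 with no filter, -0.00504 with the replicate block, -0.00599 with the block within genotype and -0.00124 with the authors' factors. With each library left out in turn, log2 fold changes in KO VAT were -0.0619 to 0.0378 for B2m, -0.103 to 0.0372 for H2-K1, -0.129 to 0.0632 for Psmb8 and -0.0937 to 0.0153 for Tap2. In KO SAT they were -0.00168 to 0.122 for H2-D1 and -0.00765 to 0.317 for Psmb8. For the interaction they were -0.0757 to 0.292 for Psmb10, -0.312 to 0.012 for Psmb8, -0.131 to 0.1003 for Psmb9 and -0.0653 to 0.0675 for Tapbp. The cause was not tested.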
